A study of Homo sapiens with 12 samples.

Results

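The cytosolic chaperonin is encoded by 8 genes, TCP1, CCT2, CCT3, CCT4, CCT5, CCT6A, CCT7 and CCT8, and these were the members described here. They were chosen by gene symbol alone: every transcript row carrying 1 of these symbols was taken, 23 transcripts in all, and its counts were summed per gene. They are 8 of the 25680 gene symbols in the tables, and all 8 passed the filter on low counts.

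The chaperonin, called CCT or TRiC, is a barrel of stacked rings in which each subunit is the product of its own gene and has a fixed place. It closes over a newly made protein and, driven by ATP, gives it room to fold. Actin and tubulin depend on it, as do many WD40-repeat proteins such as G protein beta subunits and the cell cycle activator CDC20. Heat shock factor 1, the master regulator of the heat shock response, is known to act on genes of this complex as well as on those of the HSP70 and HSP90 families.

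The RNA came from the human multiple myeloma lines U266 and MM.1S. Cells of each line, grown in RPMI with 20% fetal bovine serum, received the solvent DMSO or 6 µM IT848, which the labels name as an NF-kB inhibitor, for 6 h. Each of the 4 groups (U266 DMSO, U266 IT848, MM.1S DMSO, MM.1S IT848) had 3 libraries, and the labels name no other treatment and no engineered change in any of them. Whether replicate libraries derive from independent cultures is not stated in the labels, so p-values measure only the spread between these libraries, which may be technical.

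Libraries held 50627690 to 72039748 transcript counts, and 22887469 to 32913396 when each gene was represented by 1 transcript. All 9 plasma cell markers were detected in every group, with a summed level of 2550 to 2750 CPM (counts scaled to 1000000 per library) in U266 DMSO, 1870 to 1940 in U266 IT848, 3760 to 3830 in MM.1S DMSO and 2590 to 2670 in MM.1S IT848. Of these markers 7 fell in U266, and 6 fell and 1 rose in MM.1S under IT848, and their part in the results on the chaperonin was not tested. Over all genes tested, 4.98% fell in U266, and 19.6% fell and 18.7% rose in MM.1S. Marker sums of 5 other cell types reached at most 55.9 CPM in any library, that of the stromal list. In MM.1S some of these sums were higher under IT848: 24.7 to 26.5 against 7.51 to 9.06 CPM for the 7 T and NK cell markers, of which CD8A and NCAM1 were above 1 CPM, and 23.6 to 30 against 16.2 to 20.8 CPM for the 7 stromal markers. The sum of the 5 erythroid markers was 4.22 to 5.43 against 2.19 to 2.28 CPM, with HBB alone above 1 CPM and 2 of the 5 at 0. Their part in the results was not tested either. U266 IT848 replicate 1 held 0.68% of the MM.1S level of 4 genes near 0 in untreated U266, against 0.0712% and 0.12% in the other replicates. MM.1S DMSO replicate 2 held 0.439% of the U266 level of 10 genes near 0 in treated MM.1S, against 0.0485% and 0.0907%. Counts without this pair of libraries are given beside the main ones. The genes were chosen as near 0 in U266 DMSO and MM.1S IT848, so libraries of these groups could not be checked in this way. Longer transcripts were relatively more counted in MM.1S DMSO libraries (Spearman's rho with length 0.179 to 0.474 over 7718 genes) than in MM.1S IT848 libraries (−0.508 to 0.0298), while in U266 the ranges of DMSO (−0.00162 to 0.239) and IT848 (−0.306 to 0.135) overlapped.

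Promoter sequence for 7 members was found in the RefSeq table of build GRCh38.p14, as the 250 bases before each gene's RefSeq start; CCT6A had no entry. The annotated principal transcripts of GENCODE 29 begin 70 bases (CCT7) to 616 bases (CCT5) upstream of those starts, so part of each window is transcribed, and that of CCT5 lies wholly within the transcribed region. For the members on which the results below turn, the longest stretch of the window that overlaps no annotated exon is printed 5′ to 3′ on the gene's strand. Capitals mark a CCAAT box (CCAAT, or ATTGG on the other strand) or a GC box (GGGCGG, or CCGCCC). TCP1 is shown for its difference between the lines, CCT4 for its response to IT848, CCT7 for the difference of its responses, and CCT8 as the subunit that did not pass the test between the untreated lines.
TCP1 stretch, chr6:159789750-159789811, minus strand: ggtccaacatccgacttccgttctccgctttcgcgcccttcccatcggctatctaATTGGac
CCT4 stretch, chr2:61888843-61888906, minus strand: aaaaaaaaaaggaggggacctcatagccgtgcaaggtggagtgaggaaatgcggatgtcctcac
CCT7 stretch, chr2:73234058-73234235, plus strand: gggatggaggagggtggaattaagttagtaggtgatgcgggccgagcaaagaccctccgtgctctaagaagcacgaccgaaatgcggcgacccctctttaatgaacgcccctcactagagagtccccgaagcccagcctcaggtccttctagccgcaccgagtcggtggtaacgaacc
CCT8 stretch, chr21:29073798-29073898, minus strand: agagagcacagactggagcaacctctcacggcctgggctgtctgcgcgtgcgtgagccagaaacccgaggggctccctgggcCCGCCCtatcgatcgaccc

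The window of TCP1 was the single one of the 7 with an inward-facing heat shock element of 2 units, spelled GAANNTTC, which is its own reverse complement. Its first base lies at −231 from the RefSeq start, within an exon of MRPL18, the neighbouring gene that is read in the other direction, and the match is shown in capitals.
TCP1 match, chr6:159789815-159789844, minus strand: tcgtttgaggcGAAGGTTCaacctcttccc
Of all 35116 promoter windows of the same length, 5.78% held this motif. The outward-facing form, TTCNNGAA, was in none of the 7 windows and in 6.62% of all. A run of 3 alternating units was in none of the 7 and in 0.441% of all. The CCAAT box was in the windows of TCP1, CCT2, CCT3 and CCT8 (32.0% of all windows), and the GC box was in the same 4 (42.6% of all). An antioxidant response element core, TGACNNNGC on either strand, was found in CCT4 alone (10.9% of all). Neither TGATGNAA, the core bound by ATF4 with CEBP proteins (3.14% of all), nor CACGTG, the E-box bound by MYC (6.34% of all), was in any of the 7. These matches describe letters in the windows and say nothing about binding.

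In U266 all 8 subunit genes had higher mean counts under IT848, and 5 of them rose: TCP1, CCT3, CCT4, CCT5 and CCT6A. Their gains were small, from 13.7% for CCT6A to 21.9% for CCT4. CCT2, CCT7 and CCT8 were not called, and none fell. Counts were tested with edgeR (quasi-likelihood F test), with adjusted p-values over all 16782 genes tested and calls at an adjusted p below 0.05. Of all genes tested, 4.03% were called higher and 4.98% lower, so 5 of 8 stands beside a background of 4.03%. The median log2 change of the 8 genes was 0.19, against 0.01 over all genes.

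TCP1, the founding subunit of the complex (alpha), stood at 442.8, 450.4 and 440.1 CPM in the U266 DMSO libraries and at 541.4, 538.4 and 535.2 CPM in the IT848 libraries. Every treated library was above every control library, and the gap was many times the spread within either group. The log2 change was 0.28 ± 0.03 (SE, adjusted p = 5.3e-05, edgeR), a gain of 21.1%. TCP1 kept its call under each of the 22 alternative settings run for U266.

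Among the subunits known to bind ATP tightly, CCT4 (delta) went from 348.7, 356 and 350.8 CPM to 431, 423.3 and 432.4 CPM, without overlap. Its log2 change was 0.29 ± 0.06 (adjusted p = 0.00929, edgeR). CCT5 (epsilon), a subunit in which inherited mutations cause a sensory neuropathy, went from 179.9, 183.4 and 183.1 CPM to 204.1, 209.1 and 211.1 CPM. That is a log2 change of 0.19 ± 0.04 (adjusted p = 0.0107, edgeR), again with all treated libraries on top. CCT2 (beta) was at 376.3, 394.7 and 376.1 CPM under DMSO and 422.4, 421.5 and 429.2 CPM under IT848. The groups of CCT2 did not overlap, yet its log2 change of 0.15 ± 0.08 was not called (adjusted p = 0.337, edgeR), with a 95% interval from −0.03 to 0.33. The SD of CCT2 under DMSO and IT848 was 10.7 and 4.21 CPM in U266 and 12.5 and 46.1 CPM in MM.1S, and the fit shares the spread.

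Among the subunits known for weak ATP binding, CCT3 (gamma) went from 1578, 1554 and 1540 CPM to 1832, 1786 and 1831 CPM. The log2 change of CCT3 was 0.22 ± 0.04 (adjusted p = 0.00466, edgeR). CCT6A (zeta) went from 411.8, 448.8 and 424 CPM to 487.9, 482 and 490.5 CPM, with control replicate 2 the closest to the treated libraries. Its log2 change of 0.19 ± 0.05 was the weakest call in this line (adjusted p = 0.0285, edgeR). CCT8 (theta) was at 656.5, 692.5 and 656.7 CPM under DMSO and at 724.4, 727.3 and 740.1 CPM under IT848. Here too the groups did not overlap, but the log2 change of 0.13 ± 0.06 was not called (adjusted p = 0.242, edgeR).

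CCT7 (eta) was the subunit with the smallest difference in U266. It stood at 1155, 1143 and 1122 CPM under DMSO and at 1179, 1127 and 1188 CPM under IT848, so the groups overlapped. The log2 change was 0.03 ± 0.04 (adjusted p = 0.772, edgeR), with a 95% interval from −0.06 to 0.13.

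The folds in U266 moved little when libraries were left out, but several calls were lost. Without the pair of libraries with reads of the other line, 1 of 8 members was called higher (TCP1), while the log2 changes of the other 4 stayed between 0.18 and 0.28 with adjusted p from 0.0522 to 0.151 (edgeR). CCT3 lost its call there alone (adjusted p = 0.0522, edgeR) and kept it, like TCP1, in each of the 12 fits that left out 1 library. Leaving out U266 DMSO replicate 1 or replicate 3 left these 2 called, with CCT4 at 0.28 and 0.29, CCT5 at 0.18 and 0.20 and CCT6A at 0.16 and 0.18. Leaving out U266 IT848 replicate 3 left 3 called, with CCT5 and CCT6A at 0.18 each. CCT6A also lost its call without U266 IT848 replicate 1 or replicate 2 (0.18 and 0.20). With each line fitted alone 7 members were called higher, CCT2 (0.15, adjusted p = 0.00753, edgeR) and CCT8 (0.13, adjusted p = 0.0181, edgeR) among them.

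**Figure D1:**
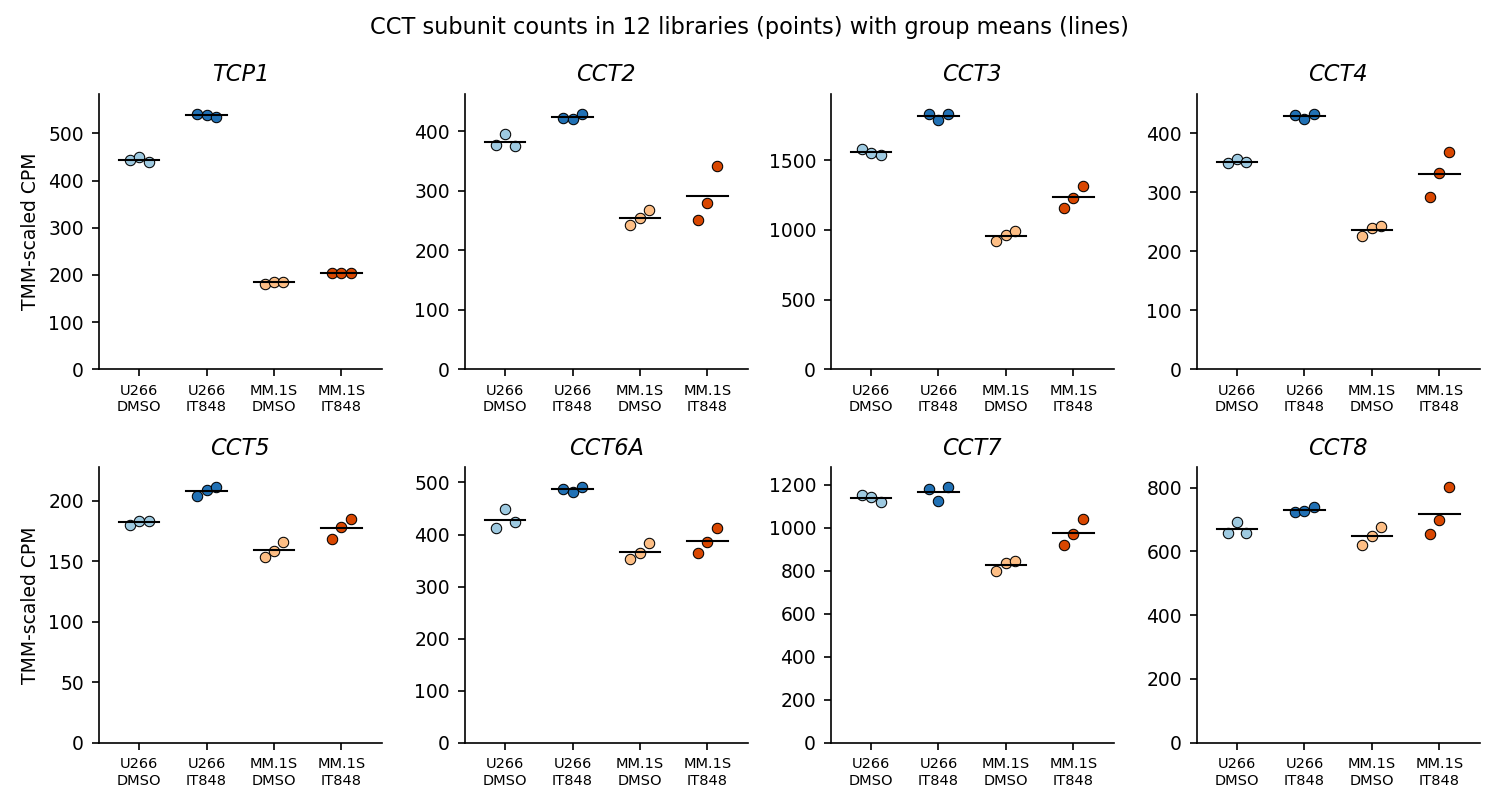
Each panel plots 1 subunit gene, with TMM-scaled CPM on an axis from 0 and the 4 groups side by side; points are the 3 libraries of a group and lines their means. The treated and control U266 libraries of CCT7 overlap, and TCP1 is far lower in MM.1S than in U266. The 3 treated MM.1S libraries are spread widely for CCT2, CCT4 and CCT8. CPM of different genes are not on a common scale.

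In MM.1S the 8 genes again had higher mean counts under IT848, and 5 rose: TCP1, CCT3, CCT4, CCT5 and CCT7. CCT4 gained 39.9% and CCT3 28.9%, the other 3 between 10.9% and 17.9%. CCT2, CCT6A and CCT8 were not called, and none fell. Of all genes tested, 18.7% were called higher and 19.6% lower in this line, so the background beside 5 of 8 is 18.7%. The median log2 change of the members was 0.17, against −0.01 over all genes.

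CCT4 showed the largest change of any subunit in either line. It went from 225.6, 239.5 and 242.9 CPM in the MM.1S DMSO libraries to 291, 332.1 and 367.3 CPM in the IT848 libraries. The treated libraries differed among themselves by more than the controls, but all stood above them. The log2 change was 0.48 ± 0.06 (adjusted p = 3.77e-05, edgeR). The other tight ATP binders had smaller values. CCT5 went from 153.4, 158.5 and 166.1 CPM to 168.4, 178.7 and 185.3 CPM, a log2 change of 0.16 ± 0.04 (adjusted p = 0.0112, edgeR). CCT2 was at 242.4, 254.9 and 267.4 CPM under DMSO and at 250.7, 280.1 and 341.1 CPM under IT848. Its groups overlapped, 1 treated library stood far above the others, and the log2 change of 0.19 ± 0.08 was not called (adjusted p = 0.0877, edgeR).

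CCT3 went from 917.7, 962.1 and 993.4 CPM to 1159, 1230 and 1315 CPM in MM.1S. The log2 change was 0.37 ± 0.04 (adjusted p = 1.8e-05, edgeR), and the groups stood well apart. CCT6A, at 353.8, 365 and 383.2 CPM under DMSO and 364, 385.2 and 412.8 CPM under IT848, overlapped between groups and was not called (log2 change 0.08 ± 0.05, adjusted p = 0.241, edgeR). CCT8 also overlapped, at 619.1, 646.9 and 675.7 CPM against 653.6, 697.2 and 800.4 CPM. Its log2 change was 0.15 ± 0.06 (adjusted p = 0.0652, edgeR).

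TCP1 went from 180.6, 185.7 and 186 CPM to 203.2, 204.9 and 204.5 CPM in MM.1S. The groups did not overlap in CPM, and the log2 change was 0.15 ± 0.03 (adjusted p = 0.00218, edgeR). CCT7 went from 801.1, 835.6 and 847.8 CPM to 918.7, 970 and 1040 CPM, without overlap. Its log2 change was 0.24 ± 0.04 (adjusted p = 0.000731, edgeR).

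The scale of the libraries bears on these values in MM.1S. When libraries were scaled to their summed counts per base in place of TMM, a setting added after seeing the data, the median log2 change of all genes in MM.1S moved to −0.14. CCT3 (0.24), CCT4 (0.35) and CCT7 (0.11) then kept their calls, and TCP1 (0.02) and CCT5 (0.03) lost them (adjusted p = 0.76 and 0.675, edgeR). CCT6A was at −0.05. Relative to the median of all genes, the median of the 8 members was 0.18 higher on that scale, close to its value in the main analysis. In U266 the same scaling moved the median of all genes to 0.00 and the same number of members, 5, was called. Leaving out MM.1S IT848 replicate 1, the treated library with the lowest CPM for each of the 8 genes, raised the number called higher to 8 and the members' median log2 change from 0.17 to 0.26, with CCT2 at 0.30 and CCT8 at 0.23. Leaving out MM.1S DMSO replicate 1 took the call from CCT5. With the trend on transcript length taken out of each library, 5 members were called higher in each line.

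**Figure D2:**
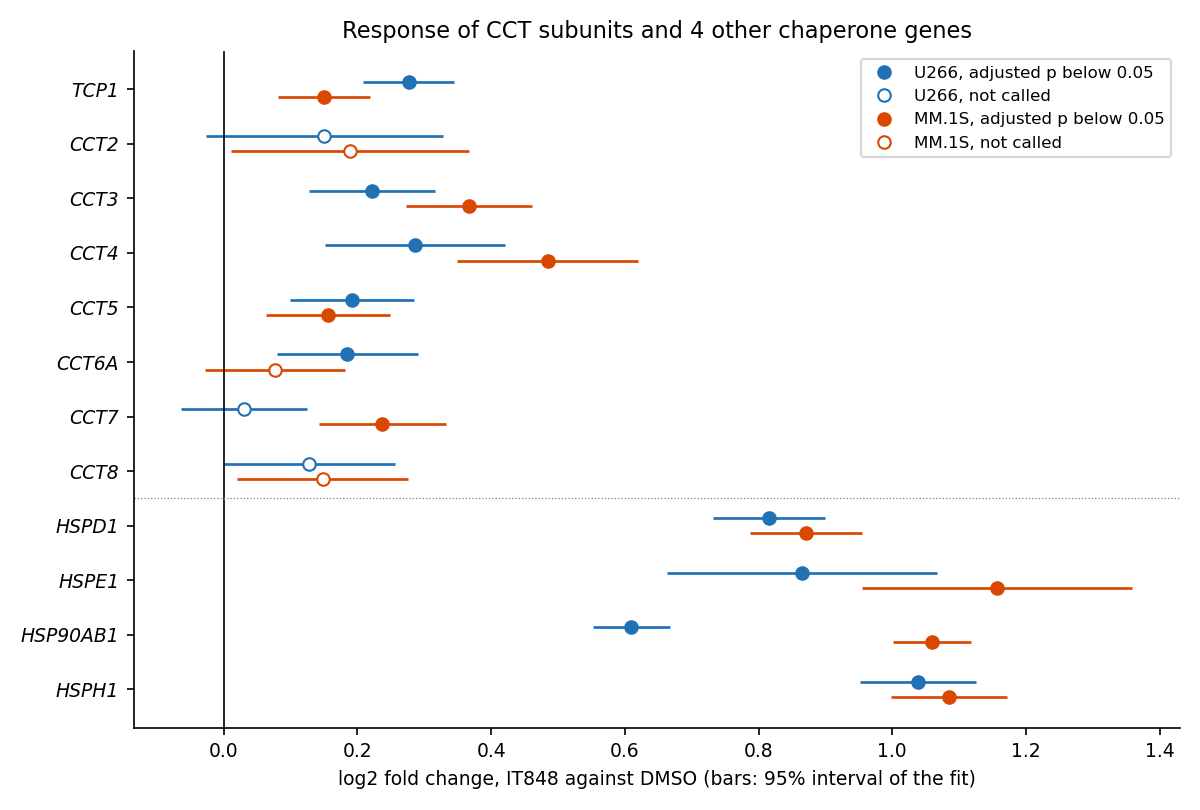
Log2 fold changes of IT848 against DMSO are plotted with 95% intervals for the 8 subunit genes and, under the dotted line, for the mitochondrial chaperonin genes HSPD1 and HSPE1 and the heat shock genes HSP90AB1 and HSPH1; filled points were called by edgeR. The subunits lie between 0.03 and 0.48, and the other 4 genes between 0.61 and 1.16.

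The difference of the responses (MM.1S minus U266) was tested within the same model. It was called for CCT7 alone, at 0.21 ± 0.06 on the log2 scale (adjusted p = 0.0343, edgeR; 95% interval 0.07 to 0.34). Of all genes tested, 8.49% were called higher and 8.94% lower in this test, so 1 of 8 called higher is near the background and is no result about the complex. In this fit edgeR called no member lower; at an unadjusted p below 0.05 there was 1, TCP1, and DESeq2 called the same number. TCP1 responded less in MM.1S than in U266 by 0.13 ± 0.05 without passing the test (adjusted p = 0.0695, edgeR; 95% interval −0.22 to −0.03). TCP1 was called lower by edgeR with library totals (adjusted p = 0.0447), the length trend taken out (0.0215) and the per-length scale (0.0192), which also called CCT6A lower (0.0157). For CCT4 the difference was 0.20 ± 0.09 (adjusted p = 0.141; interval 0.01 to 0.39) and for CCT3 0.14 ± 0.06 (adjusted p = 0.127; interval 0.01 to 0.28), both by edgeR. Without MM.1S IT848 replicate 1 both passed the test (adjusted p = 0.0055 for CCT4 and 0.022 for CCT3, edgeR), and with CCT7 3 members were called higher. With the replicate block the same 3 were called higher (adjusted p = 0.0291 for CCT4 and 0.0226 for CCT3, edgeR) and TCP1 lower (0.0468). The differences of the other 4 genes lay between −0.11 and 0.04, each with an interval that includes 0. The call of CCT7 was lost without the pair of libraries with reads of the other line, on the per-length scale, and in 10 of the 12 fits that left out 1 library, all but those without MM.1S DMSO replicate 3 or MM.1S IT848 replicate 1. Its difference was 0.23 without the pair and 0.17 to 0.23 in those 10 fits, near the main value, and 0.08 on the per-length scale.

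Under DMSO, transcript counts of 7 of the 8 genes were lower in MM.1S than in U266: TCP1, CCT3, CCT2, CCT4, CCT7, CCT6A and CCT5, in order of size. Of all genes tested, 42.1% were called lower and 40.6% higher in MM.1S, so most genes differed between the lines. The median log2 difference of the 8 members was −0.52, against −0.02 over all genes. In whole-culture RNA, fewer cells with a transcript and less of it per cell cannot be told apart.

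TCP1 differed most, at 0.414 of its U266 level (log2 difference −1.27 ± 0.03, adjusted p = 3.03e-14, edgeR). With TCP1 between 180.6 and 186 CPM in MM.1S DMSO and between 440.1 and 450.4 CPM in U266 DMSO, no treated MM.1S library reached any U266 library. CCT3 followed at −0.70 ± 0.04, CCT2 at −0.59 ± 0.08, CCT4 at −0.58 ± 0.06 and CCT7 at −0.46 ± 0.04. CCT6A (−0.22 ± 0.05) and CCT5 (−0.19 ± 0.04) differed little. CCT8 was not called, at −0.05 ± 0.06 (adjusted p = 0.475, edgeR; 95% interval −0.18 to 0.08). On the per-length scale the median of all genes moved to 0.26, and 5 members were then lower and 1 higher. There TCP1 was at −0.99, CCT3 at −0.42, CCT2 at −0.31, CCT4 at −0.30 and CCT7 at −0.18, all called lower, and CCT8 was called higher at 0.23. CCT5 (0.09) and CCT6A (0.06) turned to the other side of 0 without a call. Relative to the median of all genes, the members' median was −0.50 on that scale.

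**Figure D3:**
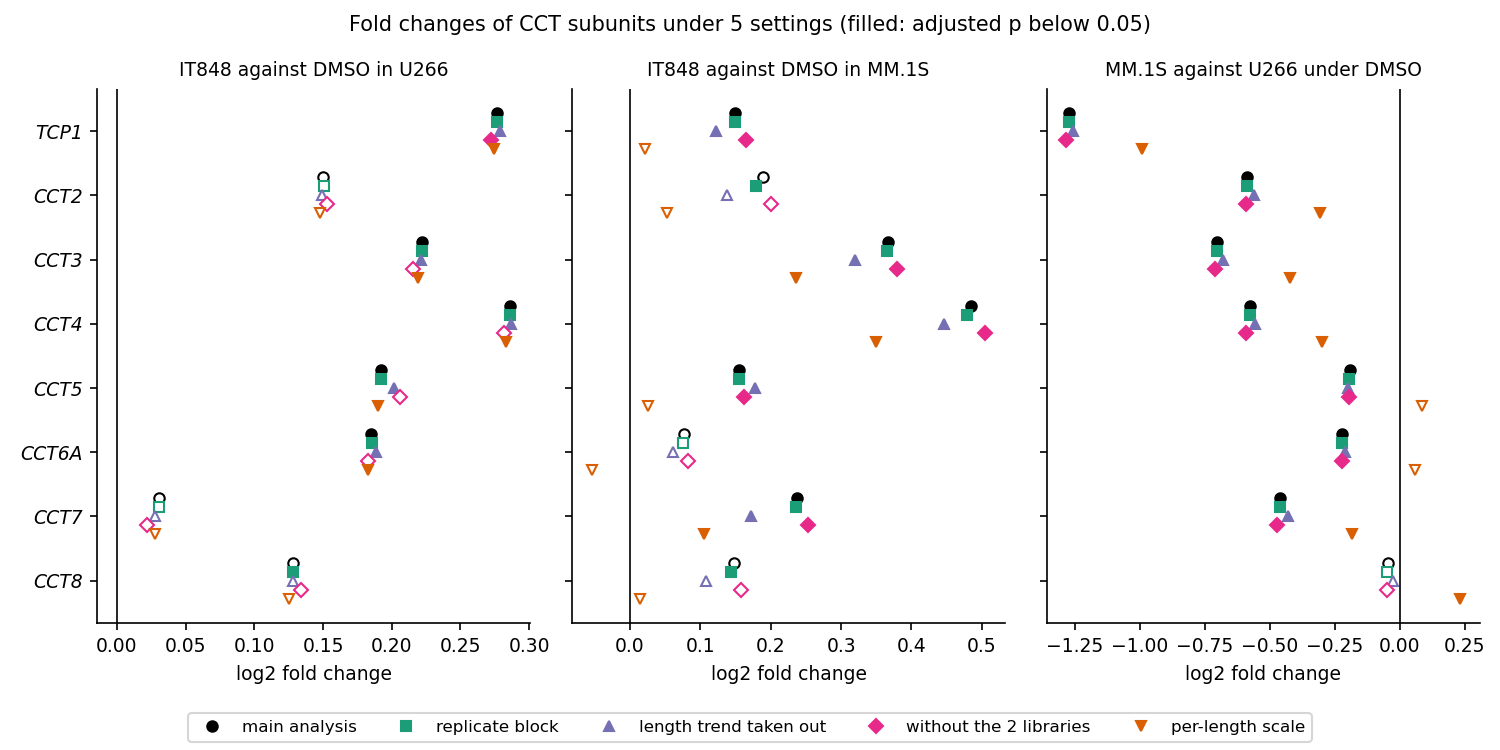
Log2 fold changes of the 8 subunit genes are plotted for 3 comparisons under the main analysis and 4 other settings; filled symbols had an adjusted p below 0.05, and the x axes differ between panels. On the per-length scale the values of MM.1S under IT848 move to the left and those of the untreated lines to the right, while those of U266 stay in place.

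Subunits can be compared with each other only per length of transcript. For this, the count of the most counted transcript of each gene was divided by its length and scaled to 1000000 per library over 1 transcript per gene. On this scale CCT3 was the highest subunit in every group, at 695 ± 5.57 in U266 DMSO, 808 ± 5.99 in U266 IT848, 518 ± 8.79 in MM.1S DMSO and 610 ± 3.88 in MM.1S IT848 (SD, n = 3). The lowest was CCT5 in U266, at 212 ± 3.06 under DMSO and 242 ± 5.74 under IT848, and TCP1 in MM.1S, at 181 ± 3.21 and 183 ± 10.5. The highest subunit was 3.28 times the lowest in U266 DMSO and 2.87 times in MM.1S DMSO. All 8 genes were among the most abundant transcripts, between the 96.5th and the 99.4th percentile of all genes in their level per length.

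The order of the subunits in U266 DMSO was CCT3, CCT7, TCP1, CCT2, CCT6A, CCT4, CCT8 and CCT5. TCP1 and CCT2 overlapped between libraries there, as did CCT4 and CCT8, and the other neighbours stood apart. In MM.1S DMSO the order was CCT3, CCT7, CCT8, CCT6A, CCT2, CCT4, CCT5 and TCP1, and CCT7 overlapped with CCT8 and CCT8 with CCT6A. By these lengths TCP1 ranked 3 of 8 in untreated U266 and 8 of 8 in untreated MM.1S, and CCT8 ranked 7 and 3. The order and the overlaps rest on the length of the most counted transcript. Isoforms of CCT8 with nearly equal counts were 1927 to 2315 bases long, and those of CCT2 1954 to 2185. Another choice of isoform could change the order of subunits at similar levels, which was not tested. Under IT848 TCP1 moved to rank 2 in U266, above CCT7, and stayed at rank 8 in MM.1S.

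The summed level per length of the 8 subunits was 2895 ± 34.9 in U266 DMSO and 3291 ± 25.4 in U266 IT848. In MM.1S it was 2450 ± 36.4 under DMSO and 2640 ± 48.9 under IT848. The share of each subunit in this sum does not depend on how libraries are scaled, but it does depend on the transcript lengths used. TCP1 made up 12.4% ± 0.0273 of the sum in U266 DMSO and 13.2% ± 0.177 in U266 IT848, against 7.37% ± 0.174 and 6.94% ± 0.522 in MM.1S. In U266 the share of CCT4 went from 10.2% ± 0.0667 to 11.0% ± 0.0238, and in MM.1S from 9.84% ± 0.100 to 11.6% ± 0.467. That of CCT7 went from 13.2% ± 0.212 to 11.9% ± 0.227 in U266 and stood at 13.8% ± 0.150 and 13.8% ± 0.229 in MM.1S. CCT6A, at 11.0% ± 0.36 and 11.0% ± 0.0169 in U266, went from 13.5% ± 0.118 to 12.1% ± 0.195 in MM.1S. CCT3 held the largest share everywhere, 24.0% ± 0.442 and 24.6% ± 0.148 in U266 and 21.2% ± 0.0452 and 23.1% ± 0.369 in MM.1S. The shares are given as values, with no test.

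**Figure D4:**
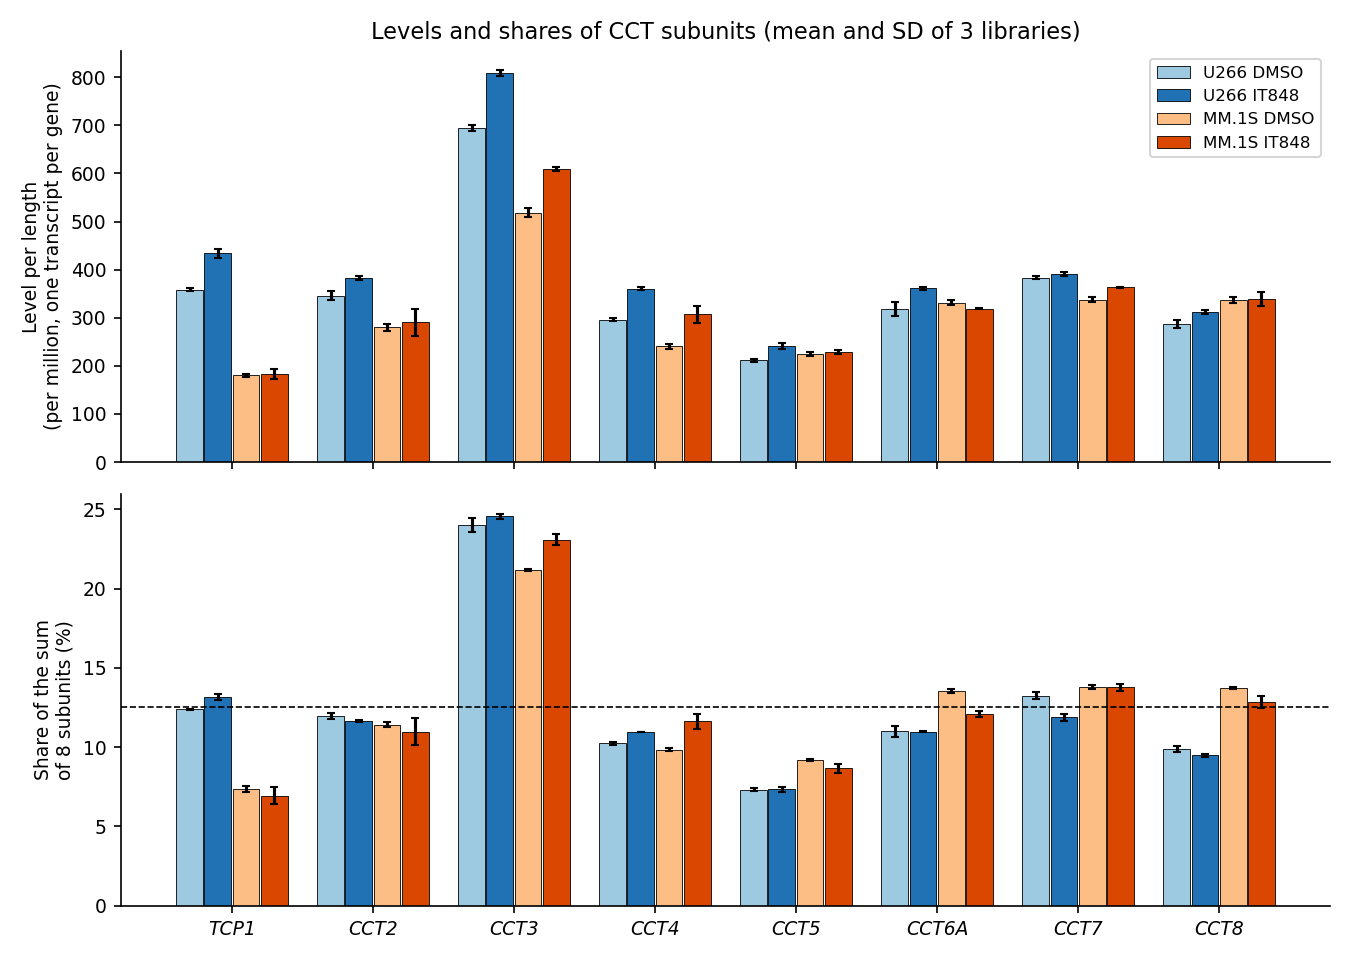
The upper bars give the level per length of each subunit gene (scaled to 1000000 per library, 1 transcript per gene) and the lower bars its share of the sum of the 8, as mean and SD of 3 libraries in each group; the dashed line marks an equal share. CCT3 holds 21.2 to 24.6% in all groups, and the share of TCP1 is 12.4 to 13.2% in the U266 groups but 6.94 to 7.37% in the MM.1S groups.

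The counts behind these values are high: the lowest count of a member's most counted transcript in any library was 4702. Isoforms of a member shared nearly all their reads, since the least counted isoform had at least 0.997 of the counts of the most counted one, except for CCT7 with 0.817. Some members lie over or beside other genes, and the sources used here do not say whether the counting used strand. TCP1 overlaps ACAT2, which was at 33 CPM on average, differed between the untreated lines by −1.29 on the log2 scale and was at −0.02 (U266) and −0.03 (MM.1S) under IT848. MRPL18, the mitochondrial ribosomal protein gene on the other side of TCP1, rose by 0.67 ± 0.08 in U266 and 0.87 ± 0.08 in MM.1S and was lower in MM.1S by 1.05 on the log2 scale. CCT4 overlaps COMMD1 (7.5 CPM) and CCT3 overlaps TSACC (1.34 CPM), both far below the members' counts. COMMD1 rose in MM.1S (0.28), and the other tested genes that overlap a member, TSACC and the small nucleolar RNA genes SNORA20 and SNORA29, were called in neither line. FAM173B, next to CCT5, rose by 0.46 ± 0.07 and 0.60 ± 0.07 in the lines, and PSPH, a serine synthesis gene next to CCT6A, by 0.34 ± 0.10 and 0.71 ± 0.11. SUMF2, on the other side of CCT6A, was not called (−0.07 and −0.03). Of the 5 other tested genes that lie beside a member without overlapping it, none was called in U266 and 3 were called in MM.1S: CMBL beside CCT5 (0.73) and USP16 beside CCT8 (0.21) rose, and FBXO41 beside CCT7 fell (−0.61). PRADC1 beside CCT7 (0.28) and MAP3K7CL beside CCT8 (−0.26) were not called there. These counts stand beside 4.03% of all genes called higher and 4.98% lower in U266, and 18.7% and 19.6% in MM.1S.

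Within lines, libraries high in 1 subunit tended to be high in the others. With each value centred on the mean of its line, the Pearson correlation of log2 CPM over the 12 libraries ranged from 0.536 to 0.992 over the 28 pairs of members, with a median of 0.846; the points share library depth and treatment. Against the mean of the other members over the 12 libraries, without centring on the lines, CCT3 had the highest correlation (0.991) and CCT8 the lowest (0.541). The other genes whose log2 CPM followed the mean of the members most closely over the 12 libraries, of 12506 searched, were MAP1LC3B (r = 0.994), an autophagy gene, H3F3B (0.992), a histone gene, NAMPT (0.992), an NAD synthesis gene, and ASNS (0.991), asparagine synthetase. AURKA, UTP11L, MAPK6, GTF2E1, PSPH and ZFAS1 came next, down to 0.988. After centring on the lines, the list was led by C11orf73 (0.990), which encodes the nuclear importer of HSP70 proteins, GPN1 (0.989), a GTPase of RNA polymerase II assembly, BANF1 (0.985) and PRKACB (0.982). BUD31, SYF2, HMGB2, HMGN2, MAP1LC3B and TSEN15 followed, down to 0.976.

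Relatives of the complex were far less counted. Of 6 tested, none was called in U266 by edgeR, by DESeq2 or at an unadjusted p below 0.05. Of all genes tested, edgeR called 4.03% higher and 4.98% lower in U266, and 18.7% and 19.6% in MM.1S. In MM.1S, CCT6B, the testis form of the zeta subunit, rose by 0.83 ± 0.13 from 5.20 ± 0.940 to 9.17 ± 1.05 CPM (SD, n = 3), and MKKS, a chaperonin-like protein of the cilium, by 0.23 ± 0.07. The pseudogene CCT6P1 fell by 0.37 on the log2 scale (SE 0.09). CCT6A shares near-identical stretches with CCT6P1 and CCT6P3, so reads may be split among them. CCT6P3, BBS10 and BBS12 were at −0.07, 0.16 and 0.21 in MM.1S without a call.

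Prefoldin is the complex that hands unfolded actin and tubulin to the chaperonin. Of 8 genes tested for prefoldin and its related complex, 1 rose in U266 and 5 rose and 1 fell in MM.1S, beside backgrounds of 4.03% and 18.7% for higher calls. For lower calls in MM.1S the background was 19.6%. PDRG1 rose in U266 by 0.41 ± 0.10 and was at 0.24 ± 0.09 in MM.1S. In MM.1S PFDN4 (0.87 ± 0.16), PFDN5 (0.53 ± 0.12), UXT (0.45 ± 0.10), VBP1 (0.32 ± 0.09) and PFDN1 (0.19 ± 0.06) rose, and URI1 fell by 0.19 on the log2 scale (SE 0.04). In U266 these 6 lay between −0.08 and 0.10. PFDN2 was not called in either line (0.25 ± 0.08 and 0.15 ± 0.08). PFDN6 had 45 counts over all libraries and was not tested.

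Phosducin-like proteins and their partners bind the chaperonin and help to release its clients. None of 6 was called in U266 by edgeR (1 at an unadjusted p below 0.05, none by DESeq2). In MM.1S 3 rose, TXNDC9 (0.68 ± 0.14), PPP4C (0.19 ± 0.06) and PDCL (0.18 ± 0.07), and NOP56, a box C/D snoRNP protein gene of this list, fell by 0.27 on the log2 scale (SE 0.04). The tubulin cofactors take tubulin from the chaperonin and join it into dimers. None of 7 was called in U266 by edgeR (2 lower at an unadjusted p below 0.05, none by DESeq2). In MM.1S TBCA (0.47 ± 0.08), TBCE (0.24 ± 0.05) and TBCB (0.23 ± 0.05) rose, and TBCD fell by 0.34 on the log2 scale (SE 0.05). Over all genes tested, edgeR called 4.03% higher and 4.98% lower in U266, and 18.7% and 19.6% in MM.1S. The absence of calls in U266 and the 1 lower call of each list in MM.1S are near these shares.

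Genes of known clients were called in both directions. Of 17 actin and tubulin genes, 2 rose and 3 fell in U266, and 6 rose and 5 fell in MM.1S. Over all genes tested, 4.03% were called higher and 4.98% lower in U266, and 18.7% and 19.6% in MM.1S. Of the actin genes, ACTB and ACTG1 fell in both lines. ACTB, encoding beta actin, was at 1251 ± 31.6 CPM in U266 DMSO and 961 ± 21.8 in U266 IT848 and at 2239 ± 22.0 and 1665 ± 17.7 CPM in MM.1S, log2 changes of −0.38 ± 0.03 and −0.43 ± 0.03 (adjusted p = 3.13e-06 and 1.95e-07, edgeR). ACTG1, encoding gamma actin, was at −0.44 ± 0.04 and −0.43 ± 0.04. Of the tubulin genes, TUBA1C rose by 0.21 ± 0.04 in U266 and 0.80 ± 0.04 in MM.1S, and TUBB4B by 0.56 ± 0.04 in MM.1S with a value of −0.06 ± 0.04 in U266. Actin and tubulin genes have near-identical copies, so their counts are uncertain. Of 18 genes of WD40-repeat and other clients, 1 rose and 2 fell in U266, and 8 rose and 4 fell in MM.1S, beside the same backgrounds, and the count that rose in U266 and the count that fell in MM.1S are near them. In MM.1S the mitotic activator CDC20 (0.33 ± 0.06) and the kinase PLK1 (0.24 ± 0.04) rose, and cyclin E1 (CCNE1, SE 0.06) fell by 0.52 and GNB5 (SE 0.05) by 0.27 on the log2 scale.

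The mitochondrial chaperonin, a different ring built from HSPD1 with its lid HSPE1, moved further than its cytosolic relative. HSPD1 was at 842 ± 15.0 CPM in U266 DMSO and 1481 ± 31.4 in U266 IT848, and at 978 ± 34.9 and 1789 ± 71.2 CPM in MM.1S. The log2 changes were 0.82 ± 0.04 in U266 and 0.87 ± 0.04 in MM.1S (adjusted p = 8.44e-09 and 8.51e-10, edgeR). HSPE1 rose by 0.87 ± 0.09 and 1.16 ± 0.09. Their 95% intervals lay above those of all 8 cytosolic subunits in both lines. Of 16 genes of the heat shock response, 14 rose in U266 and 11 rose and 1 fell in MM.1S, beside 4.03% and 18.7% of all genes called higher. The gene that fell in MM.1S was HSF1 (−0.25 ± 0.07), and 4 were not called there. By the test of the difference, 4 of the 16 responses were called higher and 7 lower in MM.1S than in U266, beside 8.49% and 8.94% of all genes. HSPB1, a small heat shock protein gene, rose by 1.49 ± 0.08 and 3.22 ± 0.09, HSPH1 by 1.04 ± 0.04 and 1.09 ± 0.04, HSP90AB1 by 0.61 ± 0.03 and 1.06 ± 0.03, and the co-chaperone gene FKBP4 by 0.54 ± 0.04 and 1.14 ± 0.04. These 4 had the smallest p and do not stand for the whole list. Among the 7 with a lower response in MM.1S, DNAJB1 was at 1.10 ± 0.06 in U266 and −0.03 ± 0.06 in MM.1S. HSPA8, also among the 7, was at 0.40 ± 0.08 and −0.10 ± 0.08.

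On the per-length scale described above, fewer genes of several of these lists were called higher in MM.1S: 3 in place of 5 for prefoldin, 1 in place of 3 for the phosducin-like list, 1 in place of 3 for the tubulin cofactors, 2 in place of 8 for the WD40 and other clients and 9 in place of 11 for the heat shock list. Called lower there were 7 in place of 4 of the WD40 and other clients and 3 in place of 1 of the heat shock list. The actin and tubulin list had 6 higher and 6 lower, and HSPD1 and HSPE1 kept their calls.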

How the data were processed

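RNA of 12 libraries was analysed from 1 deposited table per library, listing 51780 RefSeq transcripts with a count, FPKM and TPM each. The submitters' processing notes name Trimmomatic 0.36, STAR 2.5.2b, Subread 1.5.2 with featureCounts, bcl2fastq and the hg19 build. Whether counting used strand or multiply aligned reads, and the annotation release, is not given in the sources used here. The counts, per the file headers, are the authors' reads per transcript. A read was counted for every isoform it overlapped, so summed counts repeat reads. The deposited FPKM served to recover transcript lengths, and the deposited TPM, scaled by the authors to 1000000 per library, as a second scale for the levels.

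Counts were summed per symbol and tested with edgeR 4.0.16 (R 4.3.3): TMM scaling, a minimum count of 10 in the expression filter, robust quasi-likelihood F tests on all 12 libraries with a mean per group, and Benjamini-Hochberg adjustment over 16782 genes, called below 0.05. CPM are TMM-scaled. The scripts were tested on simulated data. DESeq2 1.42.0, other scalings and filters, a replicate block, a length correction and left-out libraries were alternatives. Replicates of a group differed by more than sampling noise (chi-square per degree of freedom of 2.14 or more), so none was counted as a duplicate. The highest values were those of MM.1S IT848, 30 for replicates 1 and 3 and 12.2 for replicates 2 and 3.

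All 8 members were named. Of other lists, at most 4 genes with the smallest p over both IT848 contrasts were named, and every tested gene of the chaperonin relatives, the mitochondrial chaperonin and prefoldin. HSF1, DNAJB1 and HSPA8 were named in addition. The 10 genes most correlated with the members, over libraries and within lines, and the members' neighbours that passed the filter were named too. Members and lists were chosen with earlier results of these data known. Gene neighbours and promoter windows came from RefSeq GRCh38.p14 and exons from GENCODE 29, while the tables use hg19, so no coordinates of the tables are given.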

Additional observations from a re-analysis of the deposited data

Results flagged for a closer look

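CCT7 was the only member called by edgeR's test of the difference between the lines in the main fit. Of all genes tested, 8.49% were called higher there, so 1 of 8 is near the background. The 95% intervals of TCP1 (−0.22 to −0.03), CCT3 (0.01 to 0.28) and CCT4 (0.01 to 0.39) also excluded 0, without a call. The log2 change of CCT7 was 0.03 ± 0.04 in U266 and 0.24 ± 0.04 in MM.1S. The difference was 0.21 ± 0.06 (adjusted p = 0.0343, edgeR), and 0.08 on the per-length scale. Over 21 alternatives its adjusted p ran from 0.00588 to 0.308, and 9 of them called it. All 3 treated MM.1S libraries stood above the 3 controls, and the U266 groups overlapped.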

How the results depend on the processing

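In U266 159 of 176 member values kept their status as called or not called, 14 lost the call and 3 gained it. In MM.1S 167 kept their status, 3 lost the call and 6 gained it. For the difference of responses 146 of 168 kept it, and between the untreated lines 165, with 3 reversed. A value that crossed 0 without a call in either fit was counted as kept. This held for CCT6A in MM.1S (0.08 in the main fit, −0.05 at its lowest). It also held for CCT2, CCT5 and CCT8 in the difference of responses. Members called higher in U266 numbered 2 to 5 with 1 library left out, 7 with each line fitted alone and 1 without the pair of libraries with reads of the other line. In MM.1S they numbered 4 to 8 with 1 library left out and 3 on the per-length scale. For the difference of responses the count called higher was 0 to 3 with 1 library left out, 0 without the pair, 0 on the per-length scale and 3 with the replicate block (CCT3, CCT4 and CCT7). The count called lower there was 1 with DESeq2, library totals, the replicate block or the length trend taken out, and 2 on the per-length scale. Between the untreated lines the per-length scale called 1 member higher and reversed CCT5 (0.086), CCT6A (0.058) and CCT8 (0.232). The replicate block gave 6 members higher in U266, 7 in MM.1S and 7 lower between the lines. The main fit did not pair libraries by replicate number, and whether the numbers mark pairs was not settled. Deviations of same-numbered libraries correlated at 0.301, 0.303 and −0.031 in U266 and at 0.567, −0.000541 and 0.58 in MM.1S. U266 DMSO replicates 1 and 2 and MM.1S DMSO replicates 1 and 3 correlated best with the treated library of their own number. U266 DMSO replicate 3 and MM.1S DMSO replicate 2 did not. Summed levels from the deposited TPM were 1533 (U266 DMSO), 1732 (U266 IT848), 1175 (MM.1S DMSO) and 1280 (MM.1S IT848), since the deposited scale counts every isoform. All 32 ranks of the members were the same. Both scales use the same counts, transcripts and lengths, so equal ranks test neither the lengths nor the choice of transcript. Over all genes, calls in U266 fell from 1512 to 924 without the pair of libraries, 986 without U266 DMSO replicate 3 and 1002 on the per-length scale, and calls of the difference moved from 2924 to 4388 with the replicate block and 1712 without the pair. Causes of the other shifts were not tested. No member had fewer than 4702 counts in a library, and 3 libraries per group limit the precision.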
